A study of Mus musculus with 9 samples.

Results

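The forkhead (Fox) genes encode transcription factors that share a winged-helix DNA-binding domain. They were taken from the array annotation as every gene symbol made of Fox, a subclass letter from a to s and a number, leaving out Foxm1, which left 42 genes of the 19938 measured. Each gene was read from a probe set with a single gene symbol, and Foxf1 and Foxn3, the 2 with several probe sets, from the one with the highest mean over the 9 arrays. Levels are log2 values, so a difference of 1 is a doubling.

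Total RNA was hybridised to 9 arrays, 3 in each of 3 groups, 1 array per sample. The osteosarcoma group held the lines 493H, 494H and 716H, grown from tumours of adult C57BL/6 mice of genotype Osx-Cre p53fl/fl Rbfl/fl, in which a Cre driven by the Osx promoter of the osteoblast lineage deletes p53 and Rb. All were described as fibroblastic and were harvested subconfluent below passage 8. The osteoblast group held 3 cultures of the Kusa4b10 line of mouse bone marrow stroma, kept 21 days in medium with ascorbate, and the pre-osteoblast group held 3 undifferentiated cultures of the same line. All Kusa4b10 cultures are of 1 line, so their spread is that of cultures and not of animals. Being a tumour and coming from another cell source go together here and cannot be told apart, nor can differentiation and the weeks, medium and density of culture.

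Forkhead proteins bind related DNA sites built on a core of TGTTTAC and act as activators or repressors, each in its own tissues. In bone, the FoxO proteins are known as regulators of oxidative defence, proliferation and survival of osteoblasts, and insulin and growth factor signals through PI3K and Akt remove them from the nucleus. Foxc1 and Foxc2 pattern the mesenchyme that forms the skeleton, and Foxf1 and Foxf2 are mesenchymal genes that respond to Hedgehog signals. Many of the other members are known for a single organ, such as Foxn1 for the thymus, Foxe1 for the thyroid, Foxl2 for the ovary and Foxp3 for regulatory T cells.

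Some facts of the arrays bear on every value below. Rb1 stood at 9.26, 9.67 and 9.85 in lines 493H, 494H and 716H, against 10.65, 10.63 and 10.64 in osteoblasts and 9.28, 9.28 and 9.17 in pre-osteoblasts; where its probes lie relative to the deleted part was not used here, so this does not check the deletion, and Trp53 was not analysed here. Line 716H is labelled female but went against that label: its Xist level was 5.56 and its Kdm5d level 8.76, beside 5.27 and 8.74 in the male-labelled 494H and 12.70 and 5.12 in the female-labelled 493H. Forkhead differences that rest on the lines are therefore given without 716H too. For the related genes named below, the osteosarcoma calls lost without it are marked. The mean level over 8 osteoblast markers separated the osteoblast cultures (10.67 to 11.31) from the lines (8.04 to 8.64) and from pre-osteoblasts (7.73 to 8.22). Of these 8, 0 were called higher and 4 lower in osteosarcoma than in the osteoblast group, where Alpl, Col1a1, Sp7 and Mepe were not called. Against pre-osteoblasts 1 was higher and 0 lower in osteosarcoma, and 6 higher and 0 lower in osteoblasts. Alpl, at 12.37 in 716H, lay above osteoblast cultures 1 and 3 (11.80 and 11.66). The mean over 10 adipocyte markers did so as well, at 7.48 to 8.00 in the lines, 10.47 to 11.12 in osteoblasts and 8.15 to 8.63 in pre-osteoblasts. Of these 10, 0 were called higher and 9 lower in osteosarcoma than in the osteoblast group. Against pre-osteoblasts 0 were higher and 2 lower in osteosarcoma, and 6 higher and 0 lower in osteoblasts. In the osteoblast group 9 of the 10 adipocyte markers had a mean above the median gene level of 7.97. The mean over 9 proliferation markers was 11.39 to 11.88 in the lines, 9.13 to 10.15 in osteoblasts and 10.83 to 11.82 in pre-osteoblasts, with osteoblast culture 2 the highest of its group. The mean over 9 stromal markers was 11.87 to 12.35 in the lines, 11.11 to 11.30 in osteoblasts and 11.18 to 11.36 in pre-osteoblasts. Of these 9, 3 (Thy1, Eng and Col3a1) were called higher and 1 (Fn1, -0.27) lower in osteosarcoma than in the osteoblast group. Against the pre-osteoblast group 2 (Thy1 and Eng) were higher and 1 (Pdgfrb, -0.47) lower. Thy1 was higher by 4.82 against either and Eng by 3.00 and 2.84, and these 2 were named after their values were seen. Pdgfra, Col1a2, Vim and Cd44 were not called in either osteosarcoma comparison, so the higher mean was not shared by all markers. Of 9 chondrocyte markers, 0 were called higher and 1 lower in osteosarcoma than in the osteoblast group, and 1 (Sox9) higher and 0 lower than in the pre-osteoblast group. None of the 8 endothelial, 8 epithelial or 8 haematopoietic markers was called in a comparison of 2 groups. The part of these differences in the forkhead values was not tested, and in bulk RNA fewer cells of a type and less RNA per cell cannot be told apart.

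Foxs1 and Foxo3 were lowest and Foxf1 highest in the tumour lines, and Foxn3 and Foxn2 were higher in osteoblasts than in the pre-osteoblast group. A gene was called where its difference had an adjusted p below 0.05 in limma, with adjustment over all 19938 genes, and 12 of the 42 forkhead genes were called in at least 1 of the 3 comparisons, against 42% of all genes. Between osteosarcoma and osteoblasts, 2 forkhead genes (4.76% of the 42) were called higher in the tumour lines, where 14.7% of all genes were, and 4 (9.52%) were called lower, where 12.7% of all genes were. Between osteosarcoma and pre-osteoblasts, 3 (7.14%) were called higher against 9.96% of all genes, and 5 (11.9%) lower against 13.5%. Between osteoblasts and pre-osteoblasts, 6 (14.3%) were called higher against 10.3% of all genes, and 2 (4.76%) lower against 15.8%. Over all 3 groups at once the moderated F test called 9 forkhead genes (21.4%), against 38.4% of all genes. The median difference of the forkhead genes was -0.077 for osteosarcoma minus osteoblasts, 0.024 for osteosarcoma minus pre-osteoblasts and 0.040 for osteoblasts minus pre-osteoblasts, where that of all genes was -0.018, -0.016 and -0.004. The median size of the difference, whatever its sign, was 0.105, 0.118 and 0.147 for the forkhead genes in these comparisons, where for all genes it was 0.148, 0.141 and 0.141. No share here is read as particular to the family. Many members are dim on these arrays: 18 of the 42 had a mean above the median gene level, 36 had one above the lower quartile (6.44), and 8 of the 12 called genes were among the 18. The other called genes, Foxa1, Foxb2, Foxf1 and Foxp2, had no group mean above the median gene level. Foxp2 lay at the lower quartile in both Kusa4b10 groups, with a mean of 6.45 in each.

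**Figure D1:**
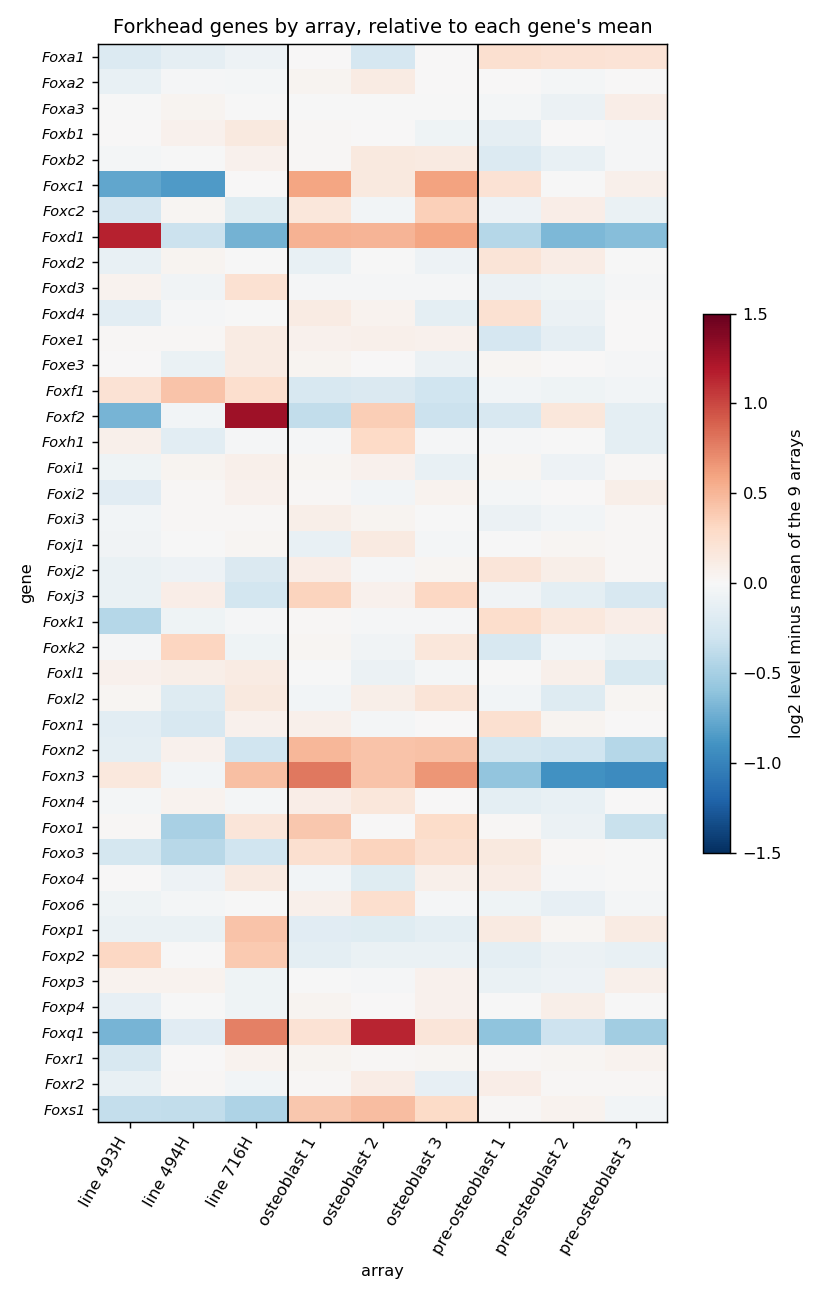
Log2 level of each of the 42 forkhead genes on each of the 9 arrays (columns), minus that gene's mean over the arrays; red is above and blue below the mean, and the vertical lines part osteosarcoma lines, osteoblast cultures and pre-osteoblast cultures. Most rows are pale, while Foxn3, Foxs1, Foxo3 and Foxn2 change by group and Foxf2, Foxd1 and Foxq1 change from line to line.

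Promoter sequences describe part of the family outside the arrays. RefSeq start sites (GRCm38.p6) gave 33 windows for 28 of the forkhead genes, each from 250 bases before to 50 bases after a start, among 32851 windows of all genes. Foxs1, Foxn2, Foxf1 and Foxq1 are among the genes not matched. The GC box GGGCGG, read on either strand, stood in 24 forkhead windows (72.7%), against 35.7% of all windows, and that of Foxn3 is among those without it in the bases printed below. Their median GC content was 62.7%, against 52.7%, and their median ratio of observed to expected CpG was 0.68, against 0.384. The CCAAT box stood in 15 (45.5%, against 37.4%) and TATAAA in 3 (9.09%, against 13.6%). The forkhead core TGTTTAC itself, on either strand, stood in 1 forkhead window (3.03%), against 3.65% of all windows, and that window belongs to Foxa1. These matches describe letters and not sites of binding. The sequences printed are the 250 bases before the start of genes that the results below turn on: Foxa1 (chr12:57546112-57546361, minus strand), which holds the core, Foxo3 (chr10:42276696-42276945, minus strand) and Foxn3 (chr12:99450075-99450324, minus strand), which differed between groups, and the neighbours Foxc1 (chr13:31806396-31806645, plus strand) and Foxf2 (chr13:31625566-31625815, plus strand), which differed between tumour lines. Each runs 5′ to 3′ on its gene's strand, and capitals mark GC boxes and, in Foxa1, the forkhead core, whose first base is 141 bases before the start and which reads GTAAACA on this strand.
Foxa1: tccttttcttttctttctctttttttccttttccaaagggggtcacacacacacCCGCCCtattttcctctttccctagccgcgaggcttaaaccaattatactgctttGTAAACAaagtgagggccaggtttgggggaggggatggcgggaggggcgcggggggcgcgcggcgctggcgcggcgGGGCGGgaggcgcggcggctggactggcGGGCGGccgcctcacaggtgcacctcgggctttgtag
Foxo3: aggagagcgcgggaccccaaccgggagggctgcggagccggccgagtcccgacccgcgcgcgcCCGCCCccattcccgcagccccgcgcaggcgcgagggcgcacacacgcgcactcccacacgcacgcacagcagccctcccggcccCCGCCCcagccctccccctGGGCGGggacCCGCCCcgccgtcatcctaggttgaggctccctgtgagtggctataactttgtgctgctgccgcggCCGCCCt
Foxn3: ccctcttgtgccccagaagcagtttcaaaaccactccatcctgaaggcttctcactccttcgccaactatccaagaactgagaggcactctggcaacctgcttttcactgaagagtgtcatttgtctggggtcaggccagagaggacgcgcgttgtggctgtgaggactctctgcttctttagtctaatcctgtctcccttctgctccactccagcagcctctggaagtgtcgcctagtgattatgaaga
Foxc1: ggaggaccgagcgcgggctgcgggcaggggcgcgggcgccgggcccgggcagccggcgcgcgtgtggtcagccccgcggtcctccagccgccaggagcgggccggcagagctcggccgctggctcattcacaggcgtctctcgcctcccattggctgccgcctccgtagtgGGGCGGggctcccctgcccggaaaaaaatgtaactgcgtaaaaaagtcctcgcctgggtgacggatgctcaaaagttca
Foxf2: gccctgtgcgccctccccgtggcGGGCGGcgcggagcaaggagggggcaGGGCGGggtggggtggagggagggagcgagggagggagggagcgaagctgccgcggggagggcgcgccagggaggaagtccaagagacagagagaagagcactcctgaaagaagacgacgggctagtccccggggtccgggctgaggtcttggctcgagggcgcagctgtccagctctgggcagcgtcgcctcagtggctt
The Foxo3 stretch holds 5 GC boxes and 31 CpG, the Foxa1 stretch 3 GC boxes and 21 CpG, the Foxf2 stretch 2 and 21, and the Foxc1 stretch 1 and 29. The Foxn3 stretch has 0 GC boxes and 5 CpG.

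Foxn3, a transcriptional repressor first known for a role in the DNA damage checkpoint, had the largest called difference of the family and was the single forkhead gene with one of at least 1 log2. It stood at 10.62, 10.42 and 10.91 in lines 493H, 494H and 716H, at 11.26, 10.89 and 11.12 in osteoblast cultures 1 to 3, and at 9.87, 9.56 and 9.52 in pre-osteoblast cultures 1 to 3. Every line and every osteoblast culture exceeded every pre-osteoblast culture, while the lines and the osteoblast cultures overlapped. Foxn3 was 2.71-fold higher in osteoblasts than in the pre-osteoblast group (1.44 ± 0.15 log2, SE, adjusted p = 0.000376). In osteosarcoma it was 2.00-fold higher than in the pre-osteoblast group (0.997 ± 0.15, adjusted p = 0.00239). Between osteosarcoma and osteoblasts the difference of -0.44 ± 0.15 did not pass (adjusted p = 0.0642), though it did without line 716H (-0.57, adjusted p = 0.0231) and, barely, without osteoblast culture 2 (-0.54, adjusted p = 0.0498). Without 716H the difference from pre-osteoblasts was 0.87 (adjusted p = 0.00541). The second Foxn3 probe set had the same order of groups, at 9.58, 9.40 and 9.82 in the lines, 10.10, 9.74 and 9.90 in osteoblasts and 9.28, 8.84 and 8.90 in pre-osteoblasts.

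Foxn2, a close relative of Foxn3, was highest in osteoblasts. It stood at 9.54, 9.75 and 9.38 in the lines, at 10.18, 10.11 and 10.12 in osteoblasts and at 9.42, 9.39 and 9.26 in pre-osteoblasts. The osteoblast cultures lay above every other array, and the lines overlapped the pre-osteoblast cultures. Foxn2 was 1.72-fold higher in osteoblasts than in the pre-osteoblast group (0.78 ± 0.094, adjusted p = 0.000676) and 1.49-fold lower in osteosarcoma than in the osteoblast group (-0.58 ± 0.094, adjusted p = 0.00250; -0.49 without 716H, adjusted p = 0.00431). Its 0.20 difference of osteosarcoma from pre-osteoblasts did not pass (adjusted p = 0.176), but did without 716H (0.29, adjusted p = 0.0397). The other FoxN genes, Foxn1 of the thymus and Foxn4 of the retina and spinal cord, were not called; Foxn1 ranged over 6.35 to 6.66 in the lines, 6.56 to 6.67 in osteoblasts and 6.60 to 6.83 in pre-osteoblasts.

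Of the FoxO genes, which encode the factors held back by insulin signalling, Foxo3 was lowest in the tumour lines. Foxo3 stood at 9.69, 9.54 and 9.66 in the lines, at 10.20, 10.29 and 10.20 in osteoblasts and at 10.10, 9.97 and 9.95 in pre-osteoblasts. The 3 groups did not overlap. Foxo3 was 1.52-fold lower in osteosarcoma than in the osteoblast group (-0.60 ± 0.065, adjusted p = 0.000415; -0.615 without 716H, adjusted p = 0.00125). Against pre-osteoblasts it was 1.30-fold lower in osteosarcoma (-0.38 ± 0.065, adjusted p = 0.00421; -0.39 without 716H, adjusted p = 0.00908). Foxo3 was 1.17-fold higher in osteoblasts than in the pre-osteoblast group (0.22 ± 0.065, adjusted p = 0.0377). That last call was lost without any 1 osteoblast culture and without pre-osteoblast culture 2 or 3, at adjusted p values of up to 0.123.

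Foxo1, the FoxO gene best known in osteoblasts and in glucose metabolism, was not called in any comparison. Its levels were 9.47, 8.96 and 9.63 in the lines, 9.85, 9.45 and 9.73 in osteoblasts and 9.47, 9.36 and 9.12 in pre-osteoblasts, with line 494H the lowest array. Its difference between osteosarcoma and osteoblasts was -0.32 ± 0.18 (adjusted p = 0.252; -0.46 without 716H, adjusted p = 0.112) and that between osteoblasts and pre-osteoblasts 0.36 ± 0.18 (adjusted p = 0.207). Foxo4 and Foxo6, of which Foxo6 is mainly known from brain, were not called either. Foxo4 ranged over 8.49 to 8.70 in the lines, 8.39 to 8.65 in osteoblasts and 8.55 to 8.68 in pre-osteoblasts.

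Foxs1, known from cells of the vessel wall and from sensory and sympathetic neurons, had the smallest adjusted p of the family in both osteosarcoma comparisons. It stood at 7.77, 7.76 and 7.67 in the lines, at 8.53, 8.59 and 8.42 in osteoblasts and at 8.15, 8.18 and 8.09 in pre-osteoblasts. The 3 groups did not overlap, with the lines lowest and the osteoblast cultures highest. Foxs1 was 1.72-fold lower in osteosarcoma than in the osteoblast group (-0.78 ± 0.061, adjusted p = 0.000108; -0.75 without 716H, adjusted p = 0.000389). It was 1.33-fold lower in osteosarcoma than in the pre-osteoblast group (-0.41 ± 0.061, adjusted p = 0.00226; -0.38 without 716H, adjusted p = 0.00671). In osteoblasts it was 1.29-fold higher than in the pre-osteoblast group (0.37 ± 0.061, adjusted p = 0.00294).

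Foxf1, a Hedgehog-responsive gene of lung and gut mesenchyme, was highest in the tumour lines. Its levels were 7.89, 8.09 and 7.92 in the lines, 7.43, 7.45 and 7.37 in osteoblasts and 7.63, 7.60 and 7.63 in pre-osteoblasts, and the 3 groups did not overlap. Foxf1 was 1.46-fold higher in osteosarcoma than in the osteoblast group (0.55 ± 0.063, adjusted p = 0.000513; 0.57 without 716H, adjusted p = 0.00134). It was 1.28-fold higher in osteosarcoma than in the pre-osteoblast group (0.35 ± 0.063, adjusted p = 0.00502; 0.37 without 716H, adjusted p = 0.00917). Its second probe set separated the lines more widely, at 7.73, 8.40 and 7.94, against 6.59, 6.54 and 6.77 in osteoblasts and 7.07, 6.44 and 7.05 in pre-osteoblasts. With the mean of both probe sets, Foxf1 was higher in osteosarcoma by 0.97 than in the osteoblast group (adjusted p = 0.000898) and by 0.76 than in the pre-osteoblast group (adjusted p = 0.00349). Between osteoblasts and pre-osteoblasts it was called lower by a narrow margin (-0.20 ± 0.063, adjusted p = 0.0491). The call was lost without any 1 Kusa4b10 culture (adjusted p 0.0777 to 0.148), without line 716H (adjusted p = 0.0525) and with the mean of both probe sets (adjusted p = 0.297).

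Foxc1, which directs mesenchymal progenitors of the skull and other bones, was lower in the tumour lines than in the osteoblast group. It stood at 9.43, 9.36 and 10.21 in lines 493H, 494H and 716H, at 10.80, 10.35 and 10.81 in osteoblasts and at 10.43, 10.20 and 10.28 in pre-osteoblasts. All lines lay below all osteoblast cultures, and 716H overlapped the pre-osteoblast cultures. Foxc1 was 1.98-fold lower in osteosarcoma than in the osteoblast group (-0.99 ± 0.23, adjusted p = 0.0127). Without 716H the difference was -1.26 (adjusted p = 0.00108), and the call was lost without osteoblast culture 1 (adjusted p = 0.0519) or 3 (adjusted p = 0.0517). Against pre-osteoblasts the difference of -0.635 ± 0.23 did not pass (adjusted p = 0.0819), but with 716H left out it was -0.91 (adjusted p = 0.00481). Foxc2, the paralogue of Foxc1, was not called in a comparison, with 9.38 to 9.66 in the lines, 9.60 to 9.99 in osteoblasts and 9.54 to 9.74 in pre-osteoblasts.

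The other 6 called forkhead genes had small differences. Foxa1, a pioneer factor of endoderm and hormone-responsive epithelia, was lower in osteosarcoma than in the pre-osteoblast group (-0.36 ± 0.077, adjusted p = 0.0106; -0.39 without 716H, adjusted p = 0.0161). Foxa1 was also lower in osteoblasts than in the pre-osteoblast group (-0.31 ± 0.077, adjusted p = 0.0200), a call lost without any 1 pre-osteoblast culture at adjusted p values of 0.0556 to 0.0578. Foxp2, a repressor known for its role in speech and motor circuits, was higher in osteosarcoma than in the osteoblast group (0.35 ± 0.095, adjusted p = 0.0264) and than in the pre-osteoblast group (0.34 ± 0.095, adjusted p = 0.0318). Its levels of 6.87 and 6.95 in 493H and 716H stood above 6.56 in 494H, while the osteoblast cultures were at 6.42 to 6.46 and the pre-osteoblast cultures at 6.41 to 6.48. Without 716H neither Foxp2 difference passed (0.27, adjusted p = 0.0642, and 0.265, adjusted p = 0.0757), and the same held without 493H (adjusted p = 0.0824 and 0.0946). Foxp2 calls were also lost without single Kusa4b10 cultures, at adjusted p values of up to 0.0850 against osteoblasts and 0.0950 against pre-osteoblasts. The related repressor Foxp1 was not called; its level was 10.86, 10.86 and 11.39 in the lines, 10.78 to 10.82 in osteoblasts and 10.99 to 11.10 in pre-osteoblasts.

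Foxj2 and Foxk1, both widely expressed, were lower in osteosarcoma than in the pre-osteoblast group, Foxj2 by -0.22 ± 0.064 (adjusted p = 0.0385) and Foxk1 by -0.34 ± 0.11 (adjusted p = 0.0473; -0.42 without 716H, adjusted p = 0.0273). Foxj2 lost its call without 493H, 716H, osteoblast culture 1 or 3 or pre-osteoblast culture 1 or 2 (adjusted p of up to 0.121). Foxk1, a regulator of glycolysis and muscle progenitors, lost it without 493H or any 1 Kusa4b10 culture (adjusted p of up to 0.145). Foxj3 and Foxb2 were higher in osteoblasts than in the pre-osteoblast group, Foxj3 by 0.38 ± 0.11 (adjusted p = 0.0357) and Foxb2, a gene of the developing brain, by 0.21 ± 0.066 (adjusted p = 0.0456). Foxj3 lost its call without 493H, osteoblast culture 1 or 3 or any 1 pre-osteoblast culture (adjusted p of up to 0.123). Foxb2 lost it without 493H, 494H, any 1 osteoblast culture or pre-osteoblast culture 1 or 2 (adjusted p of up to 0.135). Calls of these 4 genes thus turned on single arrays, unlike those of Foxs1 and Foxn2 and the osteosarcoma differences of Foxo3 and Foxf1, which passed in each run with 1 array left out.

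**Figure D2:**
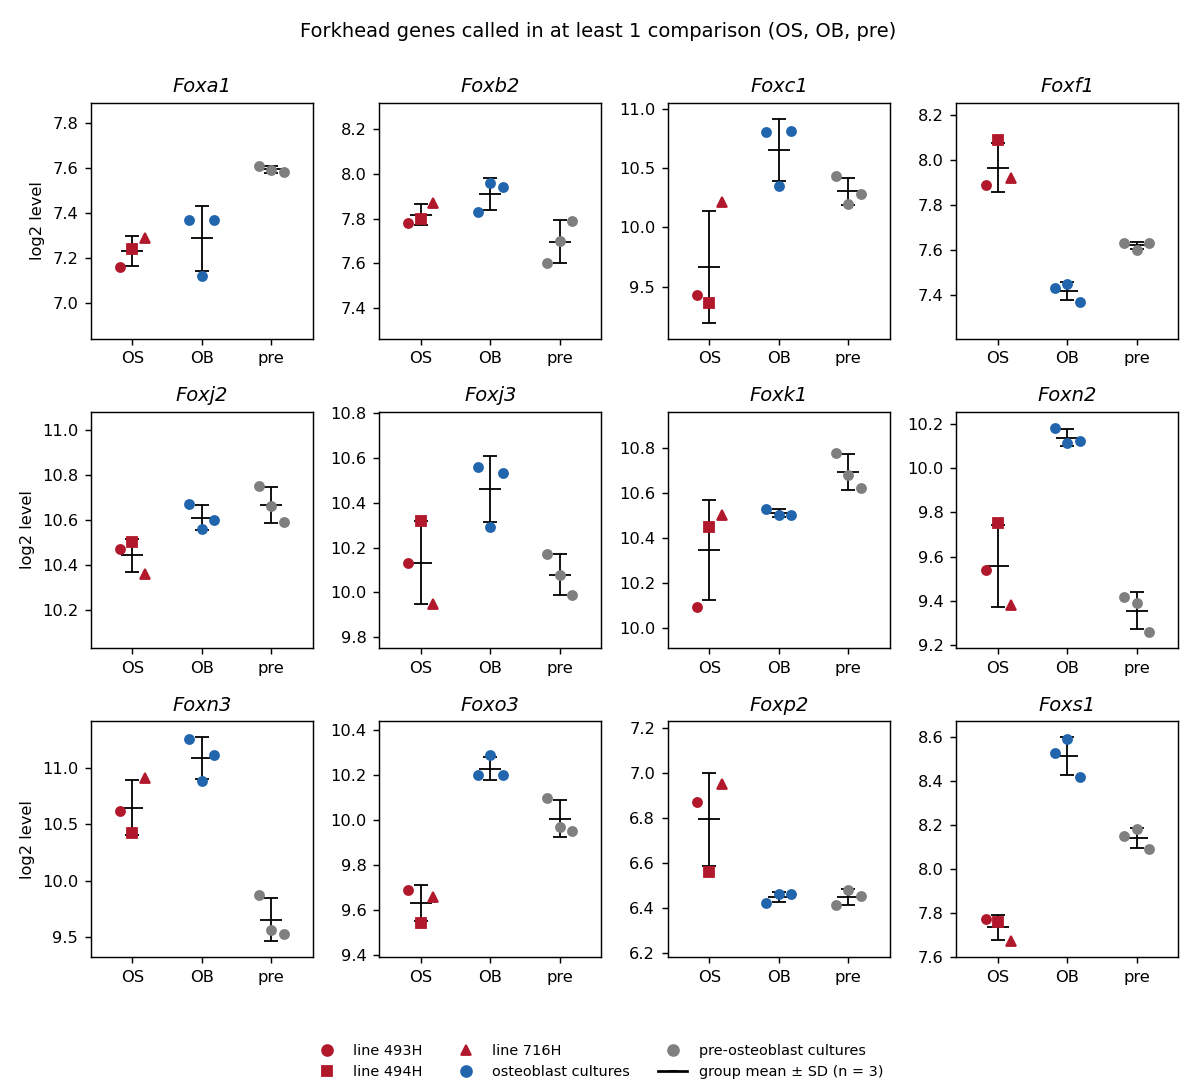
Log2 level of the 12 forkhead genes called in at least 1 comparison, by array; the horizontal bars are group means and the whiskers SD over 3 arrays, in osteosarcoma lines (OS), osteoblasts (OB) and pre-osteoblasts (pre), and each panel has its own axis. Foxn3 is lowest in pre-osteoblasts, Foxn2 is highest in osteoblasts, Foxo3 and Foxs1 are lowest in every line, and Foxf1 is highest in every line.

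Between the tumour lines, 3 forkhead genes ranged over at least 1 log2, where 4.95% of all genes did. With 1 array per line no test between lines was possible. The median range of a forkhead gene was 0.206 over the lines, 0.125 over the osteoblast cultures and 0.155 over the pre-osteoblast cultures, where for all genes it was 0.224, 0.156 and 0.165. In 20 of the 42 the range over the lines was wider than in both Kusa4b10 groups, against 50.9% of all genes. Foxf2, the mesenchymal relative of Foxf1, had the widest range of the family, 1.97, with 7.80 in 493H, 8.45 in 494H and 9.77 in 716H. In osteoblasts Foxf2 stood at 8.13, 8.87 and 8.17 and in pre-osteoblasts at 8.26, 8.67 and 8.35, so that 493H lay below and 716H above all 6 cultures. The Foxf2 difference between osteosarcoma and osteoblasts was 0.285 ± 0.45 (adjusted p = 0.705) and turned to -0.265 without 716H. That between osteosarcoma and pre-osteoblasts, 0.25 ± 0.45 (adjusted p = 0.762), likewise turned to -0.30.

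Foxd1, a marker of the stromal progenitors of the kidney, ranged over 1.87 between lines in the opposite order, with 8.85 in 493H, 7.37 in 494H and 6.98 in 716H. It stood at 8.22, 8.20 and 8.28 in osteoblasts and at 7.26, 7.02 and 7.06 in pre-osteoblasts. Line 493H was above every osteoblast culture and 716H below every pre-osteoblast culture. All osteoblast cultures were about 1 log2 above all pre-osteoblast cultures, a difference of 1.12 ± 0.40 that did not pass with the lines in the fit (adjusted p = 0.0796). With only the osteoblast and pre-osteoblast arrays fitted, Foxd1 was higher in osteoblasts with an adjusted p of 0.000251, and without 493H or 716H the adjusted p was 0.000650 and 0.0395. Between osteosarcoma and osteoblasts the Foxd1 difference of -0.50 ± 0.40 (adjusted p = 0.431) became -1.06 without 493H (adjusted p = 0.00145) and -0.12 without 716H (adjusted p = 0.843).

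Foxq1, known in mice for hair shaft differentiation, ranged over 1.45, with 7.08 in 493H, 7.61 in 494H and 8.53 in 716H. Its levels were 7.99, 8.92 and 7.96 in osteoblasts and 7.17, 7.47 and 7.26 in pre-osteoblasts, and each osteoblast culture exceeded each pre-osteoblast culture. The Foxq1 difference between osteoblasts and pre-osteoblasts, 0.99 ± 0.38, did not pass (adjusted p = 0.0918), but did without 716H (adjusted p = 0.0313) and with only those arrays fitted (adjusted p = 0.0314). Osteoblast culture 2 was the highest array for both Foxq1 and Foxf2 in its group and the lowest for Foxc1 and Foxo1. That culture also had the highest mean level of the proliferation markers among the osteoblast cultures, 10.15 against 9.24 and 9.13, and the part of this in the Foxq1 and Foxf2 values was not tested. Foxc1, with a range of 0.853, and Foxo1, with 0.670, had the next widest ranges over the lines.

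**Figure D3:**
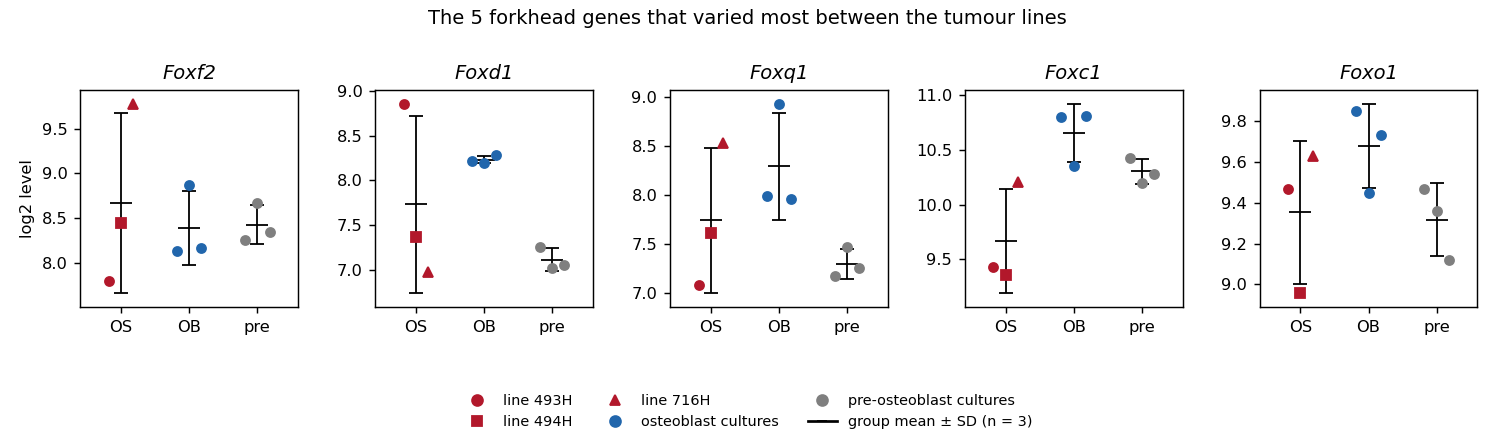
Log2 level of the 5 forkhead genes with the widest range over the 3 osteosarcoma lines, by array, with group means and SD whiskers (n = 3) and an axis for each panel. Among the lines, Foxf2, Foxq1 and Foxc1 are highest in 716H and Foxd1 in 493H. For all 5 genes the lines spread wider than either set of Kusa4b10 cultures, which follows in part from how the genes were chosen.

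Foxq1, Foxf2 and Foxc1 are neighbours on chromosome 13, and among the lines all 3 were highest in 716H. The measured protein-coding genes around them were then read as a description, chosen after these values were seen. Gmds, the next measured gene after Foxc1, was also highest in 716H, at 10.12, 10.23 and 10.53 in 493H, 494H and 716H, a range of 0.416. Exoc2, on the other side, stood at 10.28, 10.18 and 10.28, and Hus1b, between Exoc2 and Foxq1, at 6.44, 6.55 and 6.49. Wrnip1, beyond Gmds, stood at 9.17, 9.19 and 9.19. Relative to the other lines, the higher levels in 716H thus covered the 3 forkhead genes and Gmds, while Exoc2, Hus1b and Wrnip1 varied by 0.102, 0.114 and 0.024 over the lines. Mylk4, between Gmds and Wrnip1, stood at 5.13, 5.20 and 5.09. Of the forkhead genes and Gmds, only Foxf2 was higher in 716H than in every Kusa4b10 culture. Gmds stood at 9.99, 9.94 and 9.95 in osteoblasts and at 10.35, 10.61 and 10.44 in pre-osteoblasts. Farther out, Dusp22 was lowest in 716H (9.09, 8.81 and 7.89) and Serpinb1a lowest in 494H (10.47, 8.56 and 10.26). In the Kusa4b10 cultures the 3 forkhead neighbours did not share an order: osteoblast culture 2 was the highest of its group for Foxq1 and Foxf2 and the lowest for Foxc1.

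**Figure D4:**
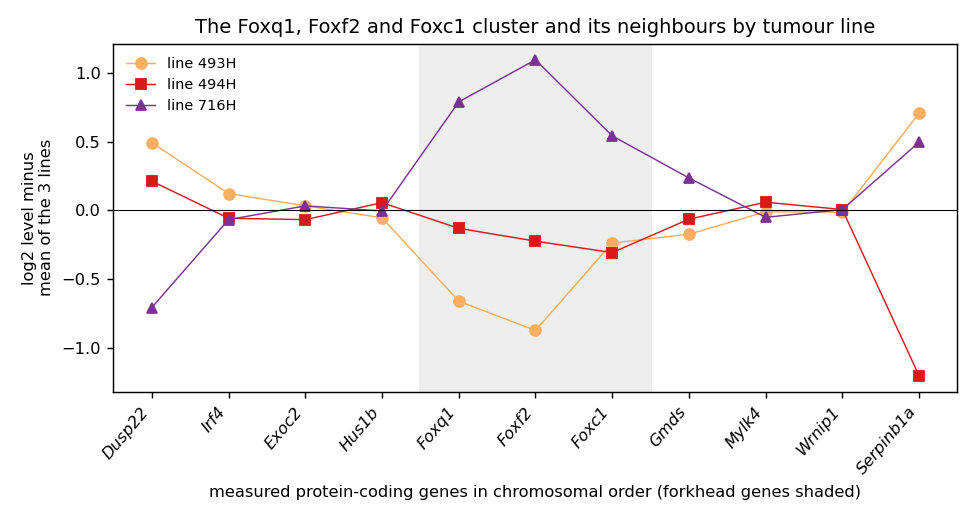
Log2 level in each osteosarcoma line minus the mean of the 3 lines, for Foxq1, Foxf2 and Foxc1 (shaded) and the measured protein-coding genes on either side, in chromosomal order at even spacing. Line 716H is above the other lines across the forkhead genes and Gmds, and below them at Dusp22.

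A second forkhead cluster, on chromosome 8, holds Foxf1, Foxc2 and Foxl1, with Mthfsd between Foxf1 and Foxc2. Its members did not move together. Foxf1 was higher in every line than in every culture, as given above. Foxc2 overlapped between all groups, and Foxl1, a gene of gut mesenchyme, ranged only over 6.85 to 6.91 in the lines, against 6.69 to 6.78 in osteoblasts and 6.56 to 6.86 in pre-osteoblasts. Mthfsd stood at 9.70, 9.78 and 9.50 in the lines, against 9.0, 9.09 and 9.10 in osteoblasts and 9.34, 9.29 and 9.26 in pre-osteoblasts, so it too was higher in every line than in every culture.

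The 30 forkhead genes without a call include those known for single organs. Foxp3, of regulatory T cells, stood at 7.52, 7.52 and 7.40 in the lines, against 7.45 to 7.53 in osteoblasts and 7.37 to 7.54 in pre-osteoblasts. Foxa3, of liver, stood at 6.25 to 6.30 in the lines, at 6.25 in all osteoblast cultures and at 6.16 to 6.35 in pre-osteoblasts. Foxj1, the master gene of motile cilia, stood at 6.35 to 6.43 in the lines, 6.29 to 6.53 in osteoblasts and 6.39 to 6.43 in pre-osteoblasts, below the lower quartile of gene levels in every group mean. Foxr1 and Foxr2, known from reproductive tissues and from tumours, stayed within 5.85 to 6.15 and 6.20 to 6.32 in the lines. Foxe1 of the thyroid was above the median gene level on every array, with 8.35, 8.35 and 8.46 in the lines, 8.39, 8.41 and 8.40 in osteoblasts and 8.08, 8.20 and 8.34 in pre-osteoblasts. A level near background on such arrays has no true zero, so these values do not say whether the genes are transcribed. Foxk2 and Foxp4 are widely expressed and were bright. Foxk2 stood at 10.60, 10.95 and 10.56 in the lines, 10.57 to 10.79 in osteoblasts and 10.38 to 10.58 in pre-osteoblasts, with 494H the highest array. Foxp4 stayed within 9.45 to 9.56 in the lines, 9.58 to 9.64 in osteoblasts and 9.56 to 9.66 in pre-osteoblasts.

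Genes that act on FoxO proteins moved in both directions. For reading the counts of the 7 lists, all genes gave 14.7% higher and 12.7% lower for osteosarcoma against osteoblasts, 9.96% and 13.5% against pre-osteoblasts, and 10.3% and 15.8% for osteoblasts against pre-osteoblasts, with medians of -0.018, -0.016 and -0.004. Of 21 measured regulators of the insulin, PI3K and Akt route and of FoxO stability, 4 were higher and 6 lower in osteosarcoma than in the osteoblast group, with a median difference of -0.204. Against pre-osteoblasts 3 were higher and 3 lower in osteosarcoma (median -0.112), or 4 and 4 without 716H, and in osteoblasts 4 were higher and 4 lower than in the pre-osteoblast group (median 0.085). Pik3cb, a catalytic subunit of PI3K, was 3.80-fold higher in osteosarcoma than in the osteoblast group (1.92 ± 0.15, adjusted p = 0.000110) and 2.98-fold higher than in the pre-osteoblast group (1.57 ± 0.15, adjusted p = 0.000311). It stood at 10.23, 10.59 and 10.39 in the lines, 8.45, 8.30 and 8.68 in osteoblasts and 8.60, 9.09 and 8.79 in pre-osteoblasts, with no overlap of the lines with either group. Sgk3, a kinase that phosphorylates FoxO proteins, was lower in osteosarcoma than in the osteoblast group (-1.36 ± 0.25, adjusted p = 0.00494) and than in the pre-osteoblast group (-1.28 ± 0.25, adjusted p = 0.00821). The phosphatase gene Inpp4b was lower in osteosarcoma than in the osteoblast group (-1.39 ± 0.26, adjusted p = 0.00495). Pik3ca was higher in osteosarcoma than in the pre-osteoblast group (0.61 ± 0.073, adjusted p = 0.000782). In osteoblasts the kinase gene Sgk1 was 3.10-fold lower than in the pre-osteoblast group (-1.63 ± 0.20, adjusted p = 0.000668), the deacetylase gene Sirt1 1.75-fold higher (0.80 ± 0.11, adjusted p = 0.00115) and the ubiquitin ligase subunit gene Skp2 1.67-fold lower (-0.74 ± 0.15, adjusted p = 0.00780). The bright 14-3-3 gene Ywhaz did not pass in either osteosarcoma comparison (0.075 and -0.11, adjusted p = 0.354 and 0.174) and was lower in osteoblasts than in the pre-osteoblast group (-0.19 ± 0.052, adjusted p = 0.0306), a call lost without osteoblast culture 1 or 2 or pre-osteoblast culture 2 or 3 (adjusted p of up to 0.0997). Akt1 was higher in osteosarcoma than in the osteoblast group (0.41 ± 0.11, adjusted p = 0.0252; 0.53 without 716H), a call lost without 493H, 494H or any 1 osteoblast culture (adjusted p of up to 0.0762), and did not pass between osteoblasts and pre-osteoblasts (-0.10, adjusted p = 0.571). The calls of Ywhaz and Akt1 were added after their values were seen. The other osteosarcoma calls named here held without 716H.

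Genes known as FoxO targets were counted in 4 lists, against the shares of all genes given above (14.7% higher and 12.7% lower between osteosarcoma and osteoblasts). The lists do not part targets that FoxO proteins activate from those they repress, so counts and medians give no direction of FoxO action. Of 13 measured targets in cell cycle and apoptosis, 1 was higher and 6 lower in osteosarcoma than in the osteoblast group (median -0.217), 1 higher and 2 lower in osteosarcoma than in the pre-osteoblast group (median -0.147), and 4 higher and 2 lower in osteoblasts than in the pre-osteoblast group (median 0.124). Gadd45a, a growth arrest and DNA damage gene, stood at 8.73, 8.50 and 9.08 in the lines, at 12.01, 10.78 and 12.11 in osteoblasts and at 8.01, 7.71 and 7.70 in pre-osteoblasts, with no overlap of any groups. It was 7.27-fold lower in osteosarcoma than in the osteoblast group (-2.86 ± 0.33, adjusted p = 0.000545) and 14.2-fold higher in osteoblasts than in the pre-osteoblast group (3.83 ± 0.33, adjusted p = 0.000149). The repressor gene Bcl6 was lower in osteosarcoma than in the osteoblast group (-1.32 ± 0.15, adjusted p = 0.000498) and higher in osteoblasts than in the pre-osteoblast group (1.27 ± 0.15, adjusted p = 0.000627). Bcl2l11, the gene of the death protein Bim, was the 1 gene of the list called higher in osteosarcoma, and was higher in osteosarcoma than in the osteoblast group (0.96 ± 0.15, adjusted p = 0.00193) and than in the pre-osteoblast group (1.14 ± 0.15, adjusted p = 0.00110). Rbl2, of the retinoblastoma family, was lower in osteosarcoma than in the pre-osteoblast group (-0.55 ± 0.052, adjusted p = 0.000285), as was Cited2 (-1.30 ± 0.076, adjusted p = 4.09e-05). The death ligand gene Tnfsf10 was lower in osteoblasts than in the pre-osteoblast group (-1.79 ± 0.50, adjusted p = 0.0291), a call lost without any 1 osteoblast culture or pre-osteoblast culture 1 or 3 (adjusted p of up to 0.100). Without 716H 5 genes of the list, not 6, were lower in osteosarcoma than in the osteoblast group, and the named osteosarcoma calls held. The 2 called lower in osteoblasts became 1 without any 1 osteoblast culture or pre-osteoblast culture 1 or 3. Ccnd1, the bright cyclin gene of the list, did not pass in any of the 3 comparisons (-0.22, -0.365 and -0.15).

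Of 9 measured FoxO targets in autophagy and protein breakdown, 0 were higher and 2 lower in osteosarcoma than in the osteoblast group (median -0.136), 2 higher and 1 lower in osteosarcoma than in the pre-osteoblast group (median 0.041), and 4 higher and 0 lower in osteoblasts than in the pre-osteoblast group (median 0.52), where 10.3% and 15.8% of all genes were. These small counts turned on single arrays: the 1 lower became 0 in 13 of 18 alternatives, among them those without 493H, 494H, osteoblast culture 1 or 3 or pre-osteoblast culture 1 or 2. The 2 higher became 1 without pre-osteoblast culture 2 and 0 without culture 3, and the 4 higher became 2 without osteoblast culture 1. Gabarapl1, of the autophagosome membrane, was 2.69-fold higher in osteoblasts than in the pre-osteoblast group (1.43 ± 0.16, adjusted p = 0.000542) and, in osteosarcoma, lower than in the osteoblast group (-0.75 ± 0.16, adjusted p = 0.00982). The cargo receptor gene Sqstm1 was lower in osteosarcoma than in the osteoblast group (-0.91 ± 0.11, adjusted p = 0.000611). In oxidative stress, of 7 measured targets 1 was higher and 2 lower in osteosarcoma than in the osteoblast group (median -0.317), 0 higher and 3 lower in osteosarcoma than in the pre-osteoblast group (median -0.189), and 1 higher and 2 lower in osteoblasts than in the pre-osteoblast group (median -0.175). Without 716H the first of these pairs was 0 higher and 1 lower, as Txnip (1.555, adjusted p = 0.09005) and Sod2 (-0.319, adjusted p = 0.0991) lost their calls. Over all runs with 1 array left out that pair was 0 to 1 higher and 1 to 3 lower, while the 2 lower in osteoblasts ranged over 0 to 2. Sesn1, a stress-induced sestrin gene, was lower in osteosarcoma than in the osteoblast group (-0.79 ± 0.175, adjusted p = 0.0108) and than in the pre-osteoblast group (-0.82 ± 0.175, adjusted p = 0.0111). The mitochondrial peroxidase gene Prdx3 was lower in osteosarcoma than in the pre-osteoblast group (-0.69 ± 0.11, adjusted p = 0.00247). The superoxide dismutase gene Sod2 was higher in osteoblasts than in the pre-osteoblast group (0.525 ± 0.11, adjusted p = 0.00804). Txnip was the 1 gene of the list called higher in osteosarcoma than in the osteoblast group (1.78 ± 0.51, adjusted p = 0.0329). In osteoblasts it was lower than in the pre-osteoblast group (-1.97 ± 0.51, adjusted p = 0.0226). Both Txnip calls were lost without osteoblast culture 2 or 3 or pre-osteoblast culture 3 (adjusted p of up to 0.106). Of 10 measured targets in metabolism and trafficking, 1 was higher and 3 lower in osteosarcoma than in the osteoblast group (median -0.104), 1 higher and 2 lower in osteosarcoma than in the pre-osteoblast group (median 0.03), and 4 higher and 1 lower in osteoblasts than in the pre-osteoblast group (median 0.29). Pdk4, a brake on pyruvate oxidation, was 2.61-fold higher in osteosarcoma than in the pre-osteoblast group (1.39 ± 0.25, adjusted p = 0.00480), and the sphingosine phosphate receptor gene S1pr1 was 3.61-fold lower in osteoblasts than in the pre-osteoblast group (-1.85 ± 0.24, adjusted p = 0.000940). Pik3ip1, an inhibitor of PI3K, was lower in osteosarcoma than in the osteoblast group (-0.99 ± 0.225, adjusted p = 0.0122; -1.12 without 716H, adjusted p = 0.0128). Against pre-osteoblasts it was lower too (-0.83 ± 0.225, adjusted p = 0.0303), a call lost without 493H, 494H, osteoblast culture 1 or pre-osteoblast culture 1 or 3 (adjusted p of up to 0.0942). Without 716H 0 genes of this list were higher in osteosarcoma than in the osteoblast group, as S1pr1 lost its call (0.581, adjusted p = 0.0930). With 1 array left out the 2 lower than pre-osteoblasts ranged over 0 to 2 and the 4 higher in osteoblasts over 2 to 4. The other osteosarcoma calls named in these lists held without 716H. Several of these genes answer to other factors besides FoxO proteins, and levels of FoxO protein in the nucleus were not measured.

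The Hedgehog pathway, which acts upstream of Foxf1 and Foxf2, had 14 measured genes. In osteosarcoma 4 were higher and 0 lower than in the osteoblast group (median -0.025), and 3 higher and 3 lower than in the pre-osteoblast group (median -0.027). In osteoblasts 0 were higher and 4 lower than in the pre-osteoblast group (median 0.034). Of all genes, 14.7% were higher and 12.7% lower, 9.96% and 13.5%, and 10.3% and 15.8% in these comparisons. With only genes above the median level, the 4 higher became 2 and the 3 higher became 0. That run leaves out the called genes Gli2, Hhip and Cdon, so it does not test their calls. Without 716H the 3 lower became 2. Hhip, a target gene that binds Hedgehog ligands, stood at 7.0, 7.29 and 6.52 in the lines, at 5.80, 5.82 and 5.88 in osteoblasts and at 5.73, 5.70 and 5.88 in pre-osteoblasts, so every line lay above every culture. It was higher in osteosarcoma than in the osteoblast group (1.10 ± 0.17, adjusted p = 0.00192) and than in the pre-osteoblast group (1.17 ± 0.17, adjusted p = 0.00188). The transcription factor gene Gli3 was higher in osteosarcoma than in the osteoblast group (0.625 ± 0.077, adjusted p = 0.000682) and lower in osteoblasts than in the pre-osteoblast group (-0.72 ± 0.077, adjusted p = 0.000400), and Gli2 was higher in osteosarcoma than in the pre-osteoblast group (0.62 ± 0.12, adjusted p = 0.00791). The co-receptor gene Gas1 was higher in osteosarcoma than in the osteoblast group (0.86 ± 0.15, adjusted p = 0.00324) and lower in osteoblasts than in the pre-osteoblast group (-0.74 ± 0.15, adjusted p = 0.00703). Smo, which transmits the signal, did not pass between osteosarcoma and osteoblasts (-0.03, adjusted p = 0.774). It was lower in osteosarcoma than in the pre-osteoblast group (-0.50 ± 0.062, adjusted p = 0.000867; -0.48 without 716H) and lower in osteoblasts than in the pre-osteoblast group (-0.47 ± 0.062, adjusted p = 0.00103). The pathway inhibitor gene Sufu was lower in osteosarcoma than in the pre-osteoblast group (-0.61 ± 0.076, adjusted p = 0.000946; -0.68 without 716H). Kif7, of the primary cilium, was the third gene called lower there (-0.39 ± 0.094, adjusted p = 0.0191), a call lost without 716H (adjusted p = 0.0515) or pre-osteoblast culture 1 or 3 (adjusted p = 0.0612 and 0.0577). The target genes Gli1 (-0.36 ± 0.12, adjusted p = 0.0525) and Ptch1 (-0.61 ± 0.33, adjusted p = 0.221) did not pass between osteosarcoma and osteoblasts; for Gli1 the lines stood at 7.54, 7.86 and 7.84, below the osteoblast cultures at 7.97, 8.34 and 8.01, and it passed without 494H (adjusted p = 0.0498). These comparisons of Smo, Sufu, Kif7, Gli1 and Ptch1 were named after their values were seen. The other osteosarcoma calls named here held without 716H. Of 18 measured genes of motile cilia, the structures that Foxj1 controls, 1 was called higher and 0 lower in each osteosarcoma comparison, and 0 were called in either direction between osteoblasts and pre-osteoblasts. The called gene was Rsph9, of the radial spoke (0.60 ± 0.086 against osteoblasts, adjusted p = 0.00148, and 0.645 ± 0.086 against pre-osteoblasts, adjusted p = 0.00130). Rfx3 was also called higher against osteoblasts without 494H (adjusted p = 0.0451), and a different cilia gene against pre-osteoblasts without 716H, which gave 2 in each.

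**Figure D5:**
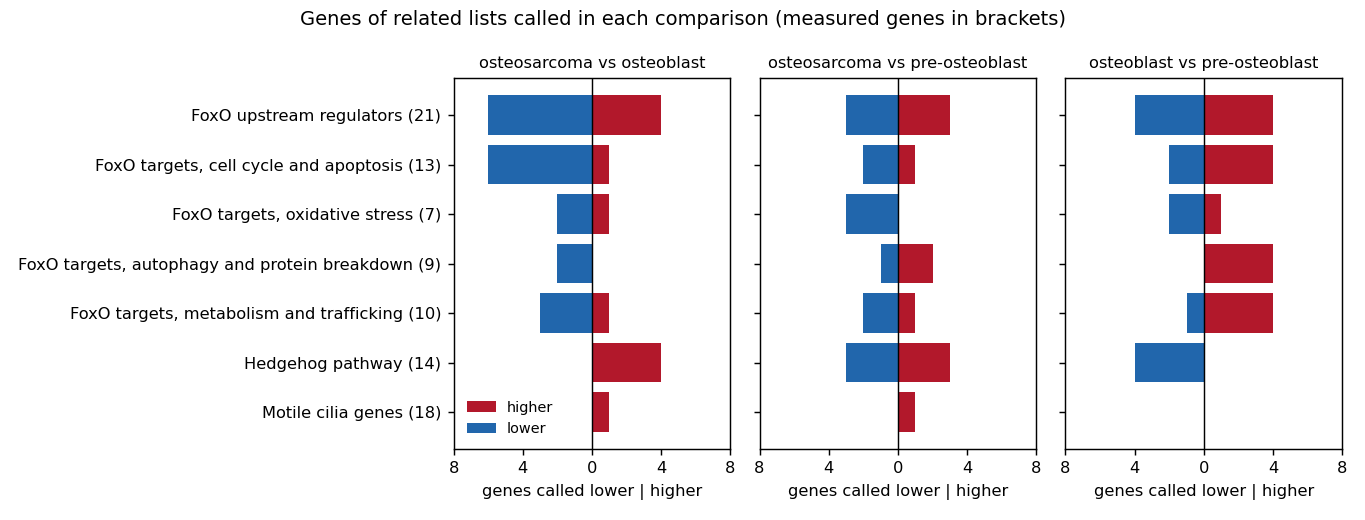
Number of genes called lower (left, blue) and higher (right, red) in each comparison, for the 7 lists of genes related to forkhead factors, with the number measured in brackets. FoxO targets in cell cycle and apoptosis had 6 of 13 genes called lower and 1 higher in osteosarcoma than in the osteoblast group. Of all genes, 12.7% were called lower and 14.7% higher there. The lower count ranged over 5 to 6 in the alternative runs, and the list does not part activated from repressed targets. Motile cilia genes were rarely called in any comparison.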

How the data were processed

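Values are log2 levels per probe set that the authors deposited after RMA (background correction, normalization between arrays and summary of probes), with build mm9, per the submitters' processing notes; its version and filters were not among the details used here. RMA sets differences relative to the other genes of an array and compresses those near background. Precision is limited by 3 arrays per group. Of 35556 probe sets, 21789 had 1 symbol in the platform annotation, 1621 several and 12146 none; only those with 1 were used. All 42 forkhead genes matched the reference gene table, which changed 0 symbols.

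From these values a model of 3 group means was fitted to all 9 arrays in limma 3.58.1 (R 4.3.3; lmFit, then eBayes with 6 residual degrees of freedom and 2.19 prior ones), two-sided, with Benjamini-Hochberg adjustment over 19938 genes and calls below 0.05. Folds are powers of 2 of the differences, given as sizes. The pipeline was tested on simulated data. All groups were given the same spread there, unlike these arrays, so that run does not gauge the calls reported here. The members, the 7 related lists and 8 marker lists were chosen with earlier results of these data known. Named with every sample were forkhead genes with a called difference of at least 1 and the 5 widest ranges over the lines, other called ones with a difference (Foxn2, Foxo3, Foxs1, Foxf1 and Foxp2, and members without a call, were given by array after their values were seen), and of each related list up to 3 called genes and 1 other per comparison. Alternatives were only genes above the median or the lower quartile of levels, probe sets averaged per gene, all probe sets tested, renewed quantile normalization, median centring, eBayes with trend and robust, array weights, fits of only the compared groups, the replicate number as a block, and each array left out. No 2 arrays of a group shared more than 4.33% of values, so none was counted as a repeat. Some genes of the lists are not reported here.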

Additional observations from a re-analysis of the deposited data

How the results depend on the processing

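Of 22 called differences of forkhead genes, 12 stayed called in the same direction under every alternative run that held the gene. Another 10 were lost under at least 1, and 0 changed sign. The 12 are all 3 of Foxs1, both of Foxn2 and Foxn3, the osteosarcoma differences of Foxo3 and Foxf1, and Foxa1 in osteosarcoma against pre-osteoblasts. The run with only genes above the median level leaves out Foxf1 and Foxa1, so it does not test their calls. Of the 104 differences of forkhead genes without a call, 15 gained one under at least 1 alternative. The causes were not tested. Counts of forkhead genes called: higher in osteosarcoma than osteoblasts, 0 with only genes above the median level (which leaves out both), 1 with only the compared groups, and 1 to 2 with each array left out; lower, 7 with renewed quantile normalization and 3 to 7 with each array left out. Lower in osteosarcoma than pre-osteoblasts, 3 with median centring, with trend and robust, or with only the compared groups, and 3 to 7 with each array left out. Higher in osteosarcoma than pre-osteoblasts, 1 with only genes above the median (which leaves out Foxf1 and Foxp2). Higher in osteoblasts than pre-osteoblasts, 3 to 8 with each array left out. Lower in osteoblasts than pre-osteoblasts, 1 with all probe sets, with trend and robust or with the mean of probe sets, 0 with only genes above the median (which leaves out both), and 0 to 2 with each array left out.

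Sign changes were all of differences without a call. Foxa1 between osteosarcoma and osteoblasts was 0.008 with centring and 0.007 with quantile normalization, and Smo was 0.036 with centring. With each array left out, Foxf2 ranged over -0.265 to 0.722 between osteosarcoma and osteoblasts, -0.3 to 0.686 between osteosarcoma and pre-osteoblasts and -0.275 to 0.094 between osteoblasts and pre-osteoblasts. Against pre-osteoblasts in osteosarcoma, Foxj3 ranged over -0.035 to 0.147, Foxo1 over -0.1 to 0.235 and Gas1 over -0.022 to 0.262; between osteoblasts and pre-osteoblasts, Foxp2 ranged over -0.022 to 0.012 and Pik3ip1 over -0.011 to 0.346.

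Osteoblast and pre-osteoblast cultures share only a number: deviations of same-numbered cultures correlated at 0.152, 0.176 and 0.028, and osteoblast culture 3 correlated better with pre-osteoblast culture 1 (0.077). With that number as a replicate block, 7 forkhead genes were higher and 2 lower in osteoblasts, but they were not the same genes throughout. Foxb2, Foxo3 and Foxf1 lost their calls (adjusted p = 0.0550, 0.0760 and 0.0639). Foxc1, Foxd1 and Foxq1 were among those that gained one (adjusted p = 0.04605, 0.00146 and 0.0120). Of 65 called differences of related and marker genes, 47 stayed called in every alternative that held the gene, and 0 changed sign. Dim genes such as Hhip and Gli2 were left out of the runs limited by level. Of 42 list counts, 20 stayed within 1.5 times under every alternative. Scaling moved the median of all genes by at most 0.0666. With arrays weighted by group, the lines had a weight of 0.598, osteoblasts 1.32 and pre-osteoblasts 1.27. The part of low signal in the number of calls was not tested; 18 of 42 forkhead genes had a mean above the median gene level.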
